A study of Mus musculus with 8 samples.

Results

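The genes described here are 10 members of the small leucine-rich proteoglycan family, *Bgn*, *Dcn*, *Aspn*, *Fmod*, *Lum*, *Prelp*, *Omd*, *Epyc*, *Ogn* and *Chad*. They were chosen by name from a family list and found by gene symbol, and they are 10 of 43629 genes in the count table, of which 17492 had a count in any library. Their RNA was measured in the growth plates of Axin2CreERT2;R26RTdTomato mice. In these mice tamoxifen turns on a red reporter in cells that express *Axin2*, so the label marks those cells and their descendants and not every cell of the resting zone. All 4 mice received 3 daily tamoxifen injections from postnatal day 23 and were analysed on postnatal day 30. From each mouse, laser microdissection gave 1 library of TdTomato-positive resting chondrocytes and 1 library of unlabeled proliferative chondrocytes, which were taken by their flat shape and a position at least 50 µm from the secondary ossification center. Mice 1 and 2 were male and mice 6 and 13 were female. The comparison of resting with proliferative zone asks which genes distinguish the chondroprogenitors from the dividing columnar cells below them.

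Small leucine-rich proteoglycans are secreted core proteins built around leucine-rich repeats, and most carry chondroitin, dermatan or keratan sulfate chains. They bind collagen fibrils, space them and set their thickness, and several hold TGF-β or other growth factors in the matrix. The family is sorted into classes by sequence. *Bgn*, *Dcn* and *Aspn* are class I, *Fmod*, *Lum*, *Prelp* and *Omd* class II, *Epyc* and *Ogn* class III and *Chad* class IV. In cartilage their fibrillar partners are collagens II, IX and XI, while in bone and fibrous tissue collagens I, III and V take that place.

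All 10 genes passed the filter on low counts and were among the 3793 genes tested. The family split by zone. *Dcn* and *Omd* were higher in the resting zone, *Epyc*, *Prelp* and *Fmod* were higher in the proliferative zone, and *Bgn*, *Aspn*, *Lum*, *Ogn* and *Chad* were not called. Calling a gene required an adjusted p below 0.01 together with a log2 fold change beyond 1 in either direction, from the quasi-likelihood test of edgeR, adjusted by the Benjamini-Hochberg method over all genes tested. By this rule 2 of 10 members were called higher in the resting zone, against 11.0% of all tested genes, and 3 of 10 were called proliferative-high, against 6.93%. Calls in either direction covered 5 of 10 members and 18.0% of all tested genes. The median log2 fold change, given throughout as resting over proliferative, was -0.18 over the members and 0.08 over all tested genes.

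The 250 bases upstream of the annotated start are shown for the called members that have an entry in the RefSeq promoter table (mouse build GRCm38.p6). They are shown because the members on chromosomes 1, 10 and 13 lie in neighbouring groups. Only on chromosome 10 were neighbours called in opposite directions, and of its 3 members only *Epyc* has an entry. Of the 10 members, 8 had an entry. *Dcn* and *Lum* had none. The windows are *Prelp* at chr1:133921402-133921651 on the minus strand, *Fmod* at chr1:134037004-134037253, *Epyc* at chr10:97643818-97644067 and *Omd* at chr13:49582212-49582461, the last 3 on the plus strand. They are written 5′ to 3′ up to the base before the start, and capitals mark a motif match.
Prelp: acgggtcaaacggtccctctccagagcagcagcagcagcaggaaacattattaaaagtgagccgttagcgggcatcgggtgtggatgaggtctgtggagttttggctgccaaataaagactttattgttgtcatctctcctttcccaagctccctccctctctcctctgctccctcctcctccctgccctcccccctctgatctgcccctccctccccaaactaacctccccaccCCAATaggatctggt
Fmod: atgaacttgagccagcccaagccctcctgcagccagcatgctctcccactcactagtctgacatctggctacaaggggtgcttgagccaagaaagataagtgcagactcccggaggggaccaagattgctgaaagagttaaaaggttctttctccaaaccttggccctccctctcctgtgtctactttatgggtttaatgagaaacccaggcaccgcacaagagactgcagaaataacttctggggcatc
Epyc: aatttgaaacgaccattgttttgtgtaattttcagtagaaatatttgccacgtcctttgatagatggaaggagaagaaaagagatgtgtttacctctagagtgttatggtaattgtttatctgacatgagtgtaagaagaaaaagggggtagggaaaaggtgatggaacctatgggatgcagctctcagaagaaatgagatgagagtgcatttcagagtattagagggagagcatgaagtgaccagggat
Omd: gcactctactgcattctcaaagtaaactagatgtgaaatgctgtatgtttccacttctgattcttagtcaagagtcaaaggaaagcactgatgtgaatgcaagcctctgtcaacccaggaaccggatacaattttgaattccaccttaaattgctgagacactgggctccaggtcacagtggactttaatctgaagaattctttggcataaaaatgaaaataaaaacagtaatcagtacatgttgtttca
Both strands were searched for 6 short motifs. Among 32817 windows of the same length, a TATA box, spelled TATAAA, was present in 12.4%. The CCAAT box, searched by those letters, was present in 33.8% of these windows and the GC box, spelled GGGCGG, in 32.7%. A SOX-type motif, ACAAAG, was found in 16.5%, a RUNX-type motif, TGTGGT, in 14.0% and an AP-1-type motif, TGANTCA, in 6.75% of them. The *Prelp* window held 1 match, a CCAAT box from base -15 to base -11 relative to the RefSeq start. That start lies 13 bases inside the gene by the GENCODE positions used below, so the match straddles the GENCODE start. The windows of *Fmod*, *Epyc* and *Omd* held none of these letters. Among the members that were not called, *Bgn* had 3 GC boxes, of which the last 2 overlap. *Chad* had a TATA box from -28 to -23 and a GC box. *Aspn* had 2 matches to the TATA letters, from -207 to -202 and from -178 to -173, and a CCAAT box. *Ogn* had 2 overlapping matches to the TATA letters between -229 and -222 and a RUNX-type match. The share of G and C was 55.6% for *Prelp*, 51.2% for *Fmod*, 39.2% for *Epyc* and 38.4% for *Omd*, with a median of 52.4% over all windows.

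Libraries were shallow. Resting libraries held 192882 to 462044 counts and proliferative libraries 249284 to 631474, and in each of the 4 mice the resting library was the shallower. The mitochondrial share of the counts was 5.47% to 7.20% in resting and 4.09% to 6.27% in proliferative libraries, higher in the resting library of all 4 mice. The part of either in the results was not tested. Levels are given as CPM, the count scaled to the library total and a TMM factor. The limit that a count of 0 allows, 3 counts, corresponded to between 4.81 and 14.7 CPM. Intervals and limits of this kind cover counting error only. The markers of other cell types moved with the zone. The summed level of 14 chondrocyte markers ran from 7572 to 19670 CPM in resting libraries and from 35410 to 60560 CPM in proliferative libraries, and 9 of the 14 were called proliferative-high, against 6.93% of all tested genes. With the mouse as a block it was 12 of the 14, where 230 of all 3793 tested genes were called in that direction. The 16 hematopoietic markers summed to between 3342 and 9576 CPM in resting libraries and between 12.8 and 1476 CPM in proliferative libraries, with 8 of 10 tested called higher in the resting zone, against 11.0% of all tested genes. With the block it was all 10, where 384 of all tested genes were called in that direction. The corresponding ranges were 1693 to 4907 and 83.9 to 483 CPM for 10 osteoclast markers, 9609 to 37620 and 620 to 4017 CPM for 12 osteoblast and osteocyte markers, and 8975 to 37080 and 610 to 3898 CPM for 14 fibroblast and perichondrial markers. The last 2 lists share *Col1a1* and *Col1a2*, which made up 89.0% to 98.6% of both sums. Without them the ranges were 567 to 1190 and 30.4 to 215 CPM for the osteoblast list and 317 to 647 and 20.8 to 97.1 CPM for the fibroblast list. *Mfap5* of the fibroblast list was at 0 in every library. For 9 marrow stroma markers the ranges were 211 to 444 and 29.0 to 68.0 CPM, and for 9 endothelial markers 219 to 386 and 83.3 to 112 CPM. *Egfl7* made up most of the endothelial sum in the proliferative libraries, at 80.1 to 109.6 CPM. It was not called (log2 fold change 0.35, adjusted p = 0.415, edgeR quasi-likelihood test). Lists that overlapped between the zones were 10 hypertrophic markers, at 1160 to 2909 and 1520 to 2306 CPM, and 8 superficial chondrocyte markers, at 1063 to 1582 and 1132 to 3003 CPM. The hypertrophic sum joined opposite calls, since *Panx3* (log2 fold change -4.78) and *Col10a1* (-4.28) were called proliferative-high and *Mmp13* (4.66) and *Spp1* (3.54) resting-high. The paper lists *Ihh*, *Mef2c* and *Pth1r* as higher in its proliferative samples, and calls carry-over of prehypertrophic chondrocytes the likely reason. Their means in resting and proliferative libraries were 0 and 18.6, 55.9 and 163, and 137 and 445 CPM. *Mef2c* and *Pth1r* were not called and *Ihh* was not tested. *Ibsp* went the other way, at 556.5 and 38.5 CPM, and was not called. The superficial sum was mostly *Prg4*, and without it the ranges were 54.0 to 163 CPM in resting and 8.56 to 17.5 CPM in proliferative libraries, which do not overlap. In these bulk samples fewer cells of a type and less RNA per cell cannot be told apart, and the part of these other cells in the results below was not tested.

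**Figure D1:**
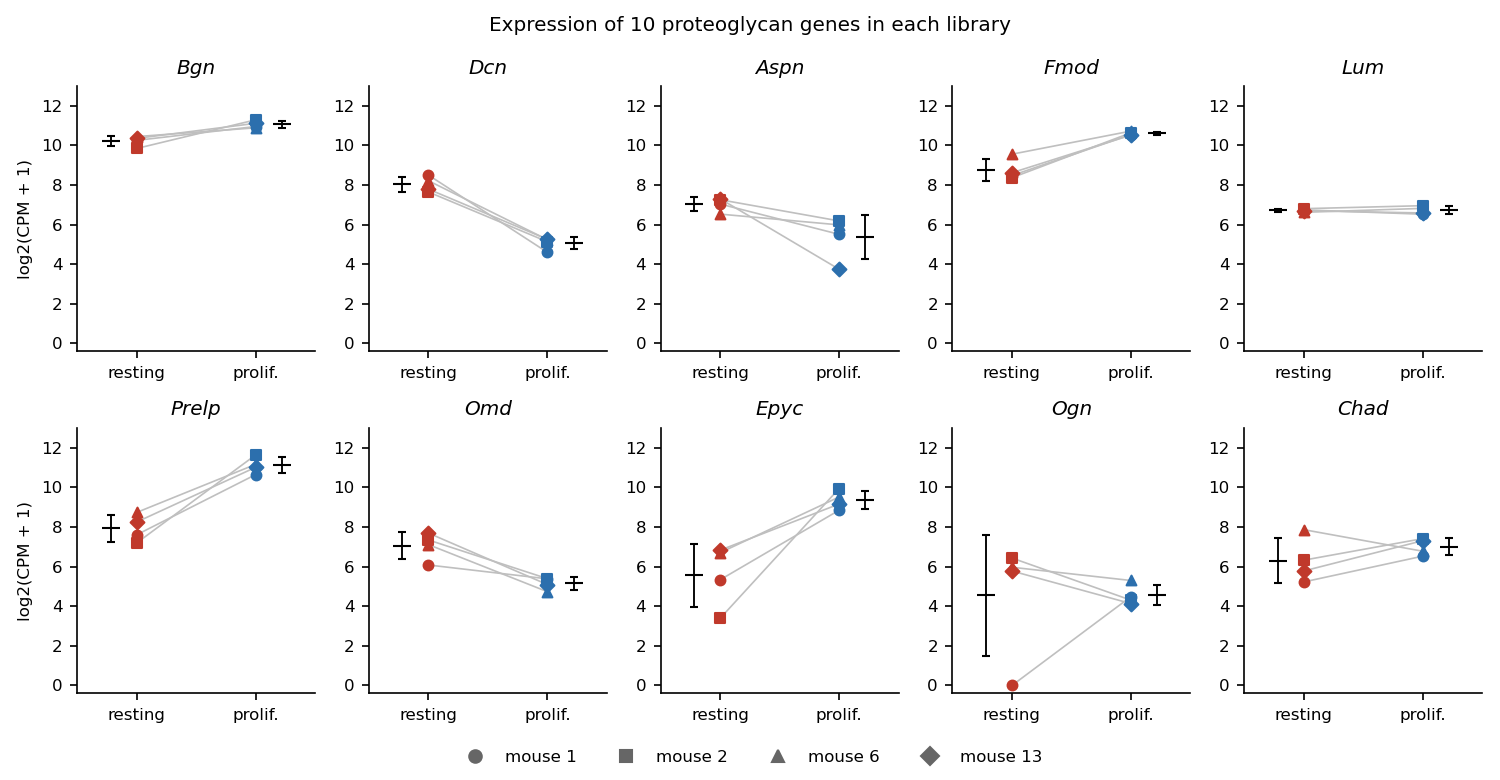
Expression of each member as log2(CPM + 1) in the 4 resting (red) and 4 proliferative (blue) libraries, with gray lines joining the libraries of a mouse and bars giving the mean ± SD of each zone. *Dcn*, *Aspn* and *Omd* were higher in all resting libraries than in any proliferative library, *Bgn*, *Fmod*, *Prelp* and *Epyc* were lower, and *Lum* overlapped between the zones.

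In class I, only *Dcn* was called. *Dcn* (ENSMUSG00000019929) encodes decorin, which carries 1 chondroitin or dermatan sulfate chain, binds collagen I and limits the lateral growth of fibrils. Its counts were 119, 63, 149 and 45 in the resting libraries of mice 1, 2, 6 and 13 and 12, 20, 23 and 9 in their proliferative libraries. As CPM these were 362, 200, 296 and 221 against 23.3, 34.2, 36.8 and 37.3. The lowest resting library was well above the highest proliferative library. The resting mean was 270 ± 74.0 CPM and the proliferative mean 32.9 ± 6.56 CPM (SD, n = 4 each). The log2 fold change was 3.04 with a standard error of 0.31, an 8.21-fold difference (adjusted p = 8.7e-05, edgeR quasi-likelihood test), and it ran from 2.51 to 3.90 within the 4 mice. The sums of osteoblast and fibroblast markers were highest in the libraries of mouse 1 within each zone, with or without *Col1a1* and *Col1a2*, and *Dcn* was highest in the resting and lowest in the proliferative library of that mouse. The part of these markers' cells in the *Dcn* difference was not tested.

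*Bgn* (ENSMUSG00000031375) encodes biglycan, the close relative of decorin with a pair of glycosaminoglycan chains. Its level was 1221, 919, 1393 and 1310 CPM in the resting libraries of mice 1, 2, 6 and 13 and 1984, 2508, 1897 and 2219 CPM in the proliferative libraries. The zones did not overlap, and each mouse had more *Bgn* in its proliferative library. The log2 fold change was -0.83 with a standard error of 0.21 and an adjusted p of 0.0109 by the edgeR quasi-likelihood test, short of both limits of the call. When every gene with a count entered the fit it was -1.05 with an adjusted p of 0.00304, which is a call.

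*Aspn* (ENSMUSG00000021388) encodes asporin, a class I member that lacks glycosaminoglycan chains and binds collagen and TGF-β. It was at 131, 152, 91.5 and 157 CPM in the resting libraries of mice 1, 2, 6 and 13 and at 44.6, 71.9, 62.5 and 12.4 CPM in the proliferative libraries. The zones did not overlap, although the lowest proliferative value rested on 3 counts in mouse 13. The log2 fold change of 1.40 had a standard error of 0.42 and an adjusted p of 0.0232 (edgeR quasi-likelihood test), and *Aspn* was not called. Under edgeR's likelihood ratio test its adjusted p was 0.00395, a call.

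Class II held all 3 outcomes. *Prelp* (ENSMUSG00000041577) encodes a protein with an arginine- and proline-rich amino terminus that binds heparan sulfate and collagen and anchors basement membranes to connective tissue. It was at 194, 146, 426 and 304 CPM in the resting libraries of mice 1, 2, 6 and 13 and at 1602, 3191, 2294 and 2070 CPM in the proliferative libraries. Every proliferative library exceeded every resting library. The resting mean was 268 ± 125 CPM and the proliferative mean 2289 ± 667 CPM (SD, n = 4 each). *Prelp* was 8.52-fold higher in the proliferative zone, with a log2 fold change of -3.09, a standard error of 0.35 and an adjusted p of 0.000136 by the edgeR quasi-likelihood test.

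*Fmod* (ENSMUSG00000041559) encodes fibromodulin, a keratan sulfate proteoglycan that binds collagen fibrils and takes part in their cross-linking. The resting libraries of mice 1, 2, 6 and 13 held 355, 330, 752 and 393 CPM and the proliferative libraries 1493, 1591, 1690 and 1468 CPM. The resting library of mouse 6 stood above the other 3 resting libraries but below all proliferative ones. *Fmod* was 3.39-fold higher in the proliferative zone, with a log2 fold change of -1.76, a standard error of 0.28 and an adjusted p of 0.000634 (edgeR quasi-likelihood test). The same resting library of mouse 6 had the highest *Prelp* and *Chad* and the highest sum of chondrocyte markers in its zone, and without it the log2 fold change of *Fmod* was -2.14.

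*Omd* (ENSMUSG00000048368) encodes osteomodulin, also called osteoadherin, a keratan sulfate proteoglycan known from mineralized matrix. Its level was 66.8, 162, 137 and 206 CPM in the resting libraries of mice 1, 2, 6 and 13 and 40.8, 41.1, 25.6 and 33.2 CPM in the proliferative libraries. The zones did not overlap, and mouse 1 showed the smallest difference. *Omd* was 4.00-fold higher in the resting zone, with a log2 fold change of 2.00, a standard error of 0.39 and an adjusted p of 0.00208 by the edgeR quasi-likelihood test. The call was lost when the proliferative library of mouse 2, 6 or 13 was left out (adjusted p = 0.01, 0.0129 and 0.012) and when both libraries of mouse 6 were left out (0.0106), with log2 fold changes of 1.74 to 1.98.

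*Lum* (ENSMUSG00000036446) encodes lumican, which shares collagen binding sites with fibromodulin. It was at 106, 111, 97.5 and 103 CPM in the resting libraries of mice 1, 2, 6 and 13 and at 91.2, 123, 112 and 95.4 CPM in the proliferative libraries. The values interleaved, with 2 mice higher in each direction. The log2 fold change was -0.02 with a standard error of 0.27 (adjusted p = 0.967, edgeR quasi-likelihood test), and its sign turned with the scaling (0.17 with library size only).

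In class III, *Epyc* (ENSMUSG00000019936) encodes epiphycan, a dermatan sulfate proteoglycan of growth plate cartilage. It was at 39.5, 9.51, 104 and 113 CPM in the resting libraries of mice 1, 2, 6 and 13 and at 460, 983, 732 and 572 CPM in the proliferative libraries. The lowest resting value, in mouse 2, rested on 3 counts, and the same mouse had the highest proliferative value. *Epyc* was 10.4-fold higher in the proliferative zone, with a log2 fold change of -3.38, a standard error of 0.53 and an adjusted p of 0.000581 by the edgeR quasi-likelihood test. Within the mice the log2 difference ran from -6.55 to -2.33.

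*Ogn* (ENSMUSG00000021390) encodes osteoglycin, or mimecan. Its counts were 0, 27, 31 and 11 in the resting libraries of mice 1, 2, 6 and 13 and 11, 11, 24 and 4 in the proliferative libraries. The resting library of mouse 1 alone had no count, which allows up to 9.11 CPM, whereas the other 3 resting libraries held 85.6, 61.7 and 54.0 CPM and the proliferative libraries 16.6 to 38.4 CPM. The log2 fold change was 1.03 with a standard error of 0.72 and an adjusted p of 0.312 (edgeR quasi-likelihood test). Without the resting library of mouse 1 it was 1.44 with an adjusted p of 0.0349. Within mice 1, 2, 6 and 13 the log2 difference was -4.48, 2.13, 0.67 and 1.64, with a mean of -0.011.

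*Chad*, the class IV member (ENSMUSG00000039084), encodes chondroadherin, which binds collagen II and integrin α2β1. It was at 36.5, 79.2, 233 and 54.0 CPM in the resting libraries of mice 1, 2, 6 and 13 and at 91.2, 170, 109 and 158 CPM in the proliferative libraries. In 3 of 4 mice the proliferative library was higher, and mouse 6 went the other way with the highest value of all. The log2 fold change was -0.33 with a standard error of 0.49 and an adjusted p of 0.653 by the edgeR quasi-likelihood test, and without the resting library of mouse 6 it was -1.23 with an adjusted p of 0.0258.

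**Figure D2:**
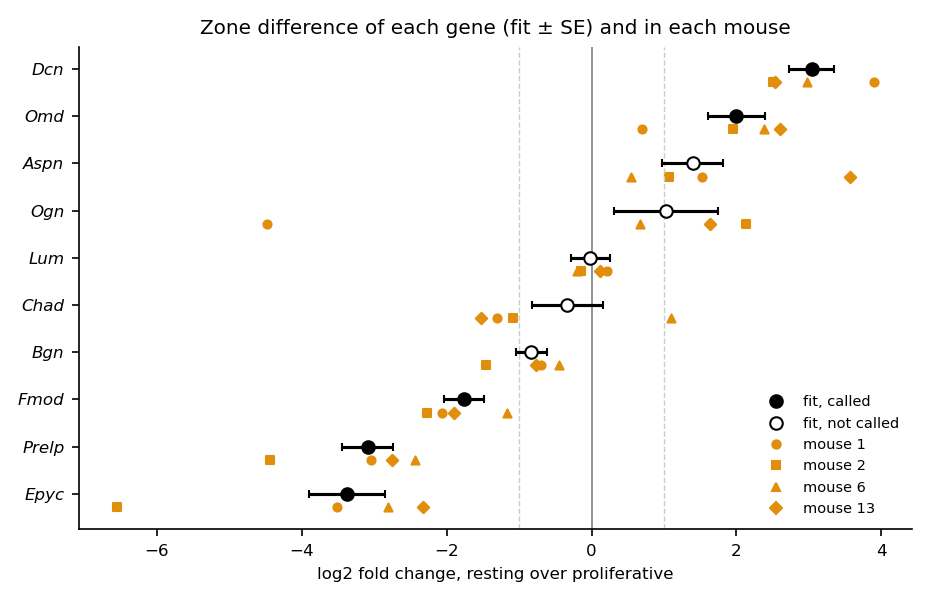
Log2 fold change of each member, resting over proliferative, from the fit with its standard error (black, filled where called) and within each of the 4 mice (orange symbols), with dashed lines at -1 and 1. The order runs from *Epyc* at -3.38 to *Dcn* at 3.04, the mice spread most for *Ogn*, and *Chad* of mouse 6 lies opposite to the other mice.

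Across the libraries, 3 members (*Dcn*, *Aspn* and *Omd*) were higher in every resting library than in any proliferative one, as were 17.8% of all tested genes, and 4 members (*Bgn*, *Fmod*, *Prelp* and *Epyc*) were lower, as were 15.1%. For each of these 7 genes the exact two-sided permutation test on log2(CPM + 1) gave p = 0.0286, the smallest that 70 arrangements of 4 against 4 libraries allow. Any gene whose zones do not overlap gets this value, so it restates the separation and adds no support to it. This test leaves the pairing by mouse aside, and a permutation test by sign flips within the 4 pairs cannot go below 0.125. The edgeR fit with the mouse as a block uses the pairing, and it changed the call of no member. No member's zone difference was called between the sexes. The edgeR quasi-likelihood test of the zone by sex term called 0 of 3793 genes at an adjusted p below 0.01, with 250 genes at an unadjusted p below 0.05. Of the members, *Epyc* had the smallest p in that test, 0.0114, with an adjusted p of 0.723.

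The family as a whole took a larger share of the counts in the proliferative zone. The 10 genes held 0.248%, 0.229%, 0.391% and 0.308% of all counts in the resting libraries of mice 1, 2, 6 and 13 and 0.552%, 0.816%, 0.692% and 0.646% in the proliferative libraries. The zones did not overlap, and the Wilson 95% interval of the highest resting share ended at 0.409% while that of the lowest proliferative share began at 0.532%. The geometric mean ratio was 2.33 in favor of the proliferative zone (1.77 to 3.56 within the 4 mice). The abundant *Bgn*, *Prelp* and *Fmod* make up most of this sum, which therefore does not show the members that went the other way.

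The make-up of the family changed. *Bgn* went from 43.6% ± 4.19 of the family's resting counts to 30.7% ± 3.34 of its proliferative counts, although its own level was higher in the latter. *Prelp* went from 9.17% ± 2.41 to 31.9% ± 3.79 and *Epyc* from 2.19% ± 1.5 to 9.56% ± 1.61, while *Dcn* went from 9.83% ± 3.11 to 0.469% ± 0.0865 (SD, n = 4 each). *Fmod* took 15.9% and 22.5%, *Omd* 5.23% and 0.508%, and *Aspn* 5.02% and 0.666%. *Lum* took 3.88% and 1.5%, *Chad* 3.35% and 1.85%, and *Ogn* 1.87% and 0.344%.

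**Figure D3:**
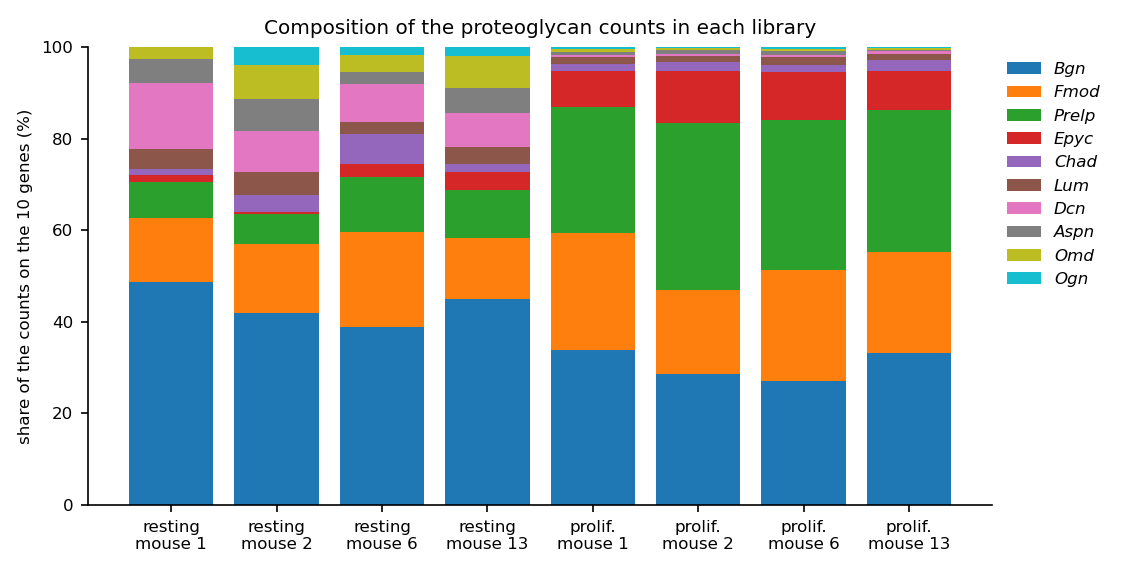
Share of the counts on the 10 genes that fell on each gene, in percent, for each of the 8 libraries. *Prelp* (green) and *Epyc* (red) took a larger part of every proliferative bar, and *Dcn* (pink) nearly disappears there, from 9.83% to 0.469% on average.

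Ratios between members of the same library do not depend on how libraries are scaled. Decorin to biglycan transcripts stood at 0.296, 0.217, 0.213 and 0.169 in the resting libraries of mice 1, 2, 6 and 13 and at 0.0117, 0.0137, 0.0194 and 0.0168 in the proliferative libraries, a 14.5-fold difference between 2 genes of the same class. Within class II, the ratio of *Prelp* to *Fmod* was 0.583 ± 0.139 in resting libraries and 1.46 ± 0.392 in proliferative ones (SD, n = 4 each), so the 2 proliferative-high members did not change in proportion. The ratio of *Epyc* to *Lum* was 14.4-fold higher in the proliferative zone, and that of *Dcn* to *Lum* was 8.13-fold higher in the resting zone. None of these 4 ratios overlapped between the zones. They are a description, since the pairs were chosen with the members' values known, and for *Dcn* and *Bgn*, which each separated the zones in opposite directions, the ratio had to separate them too.

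Levels were compared between genes per length, as CPM per kilobase of the principal transcript. This assumes that reads cover each transcript evenly. In the resting zone the order was *Bgn* (501 ± 85.4), *Dcn* (153 ± 42.1), *Fmod* (147 ± 63.5), *Prelp* (74.0 ± 34.5), *Omd* (63.6 ± 25.9), *Chad* (59.9 ± 53.5), *Aspn* (57.0 ± 12.8), *Lum* (42.7 ± 2.30), *Epyc* (26.1 ± 19.7) and *Ogn* (19.6 ± 14.1). Only *Bgn* and *Dcn* were neighbours in this order whose libraries did not overlap. In the proliferative zone the order was *Bgn* (890 ± 113), *Prelp* (633 ± 184), *Fmod* (500 ± 32.5), *Epyc* (270 ± 89.3), *Chad* (78.5 ± 22.4), *Lum* (43.1 ± 6.08), *Aspn* (20.6 ± 11.2), *Dcn* (18.7 ± 3.73), *Omd* (15.6 ± 3.26) and *Ogn* (9.28 ± 3.88). The steps from *Fmod* to *Epyc*, *Epyc* to *Chad*, *Chad* to *Lum* and *Lum* to *Aspn* separated libraries that did not overlap, and the other neighbours overlapped. The order turned on the length used, an alternative chosen after the data were seen. Per kilobase of all exons joined, *Bgn* had 199 ± 33.9 in the resting zone and still came first, but *Dcn* had 46.2 ± 12.7 and came seventh. In the proliferative zone *Prelp* (633 ± 184) and *Fmod* (472 ± 30.7) then came before *Bgn* (353 ± 44.9), and *Dcn* came last with 5.64 ± 1.12. RNA was amplified by 2 rounds of in vitro transcription, and how evenly this covered each transcript was not measured here.

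Genes of the family lie side by side in the genome. On chromosome 10 of GRCm38, *Dcn* (chr10:97479609-97518143), *Lum* (chr10:97565128-97572703) and *Epyc* (chr10:97644068-97682454) follow each other on the plus strand, with a gap of 47.0 kb between the first pair and no protein-coding gene other than the family gene *Kera* between *Lum* and *Epyc*. These neighbours took all 3 outcomes, with log2 fold changes of 3.04, -0.02 and -3.38. The difference between the log2 fold changes of *Dcn* and *Epyc* was 7.41, 9.06, 5.78 and 4.86 in mice 1, 2, 6 and 13. On chromosome 1, *Prelp* (chr1:133910304-133921414, minus strand) and *Fmod* (chr1:134037254-134048277, plus strand) are 115.8 kb apart with no protein-coding gene between them, and both were higher in the proliferative zone. On chromosome 13, *Aspn* (chr13:49544443-49567565), *Omd* (chr13:49582462-49592822) and *Ogn* (chr13:49608046-49624501) had log2 fold changes of 1.40, 2.00 and 1.03, of which that of *Omd* was called. *Chad* (chr11:94565047-94569127) and *Bgn* (chrX:73483602-73495933) have no other member on their chromosomes.

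**Figure D4:**
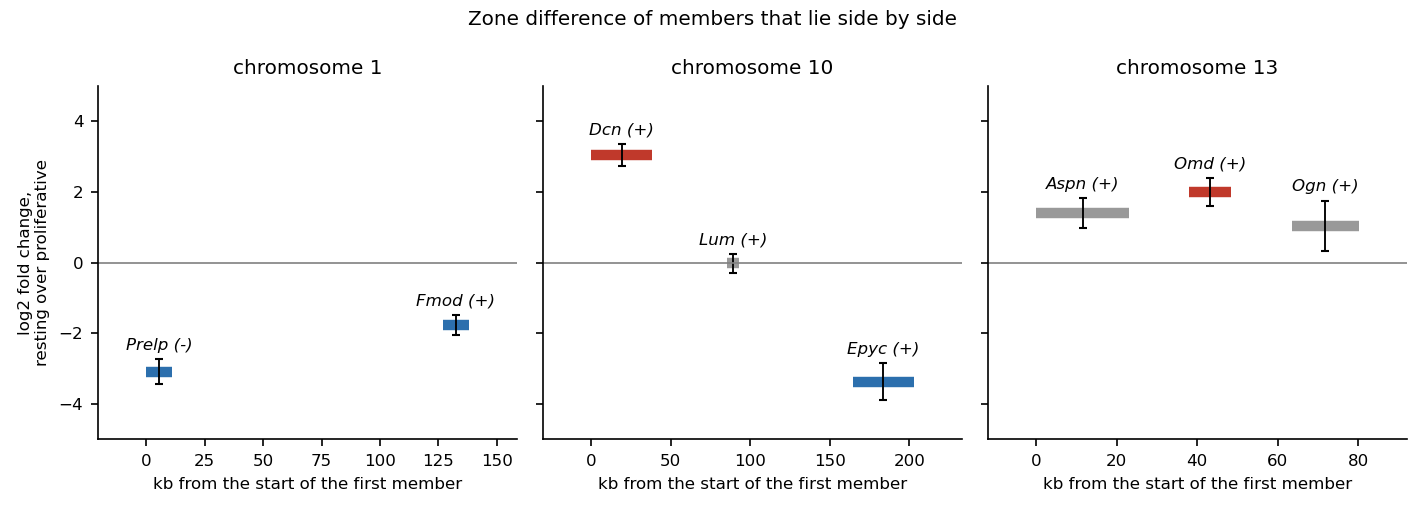
Log2 fold change, resting over proliferative, with its standard error, of the members that share a chromosome, drawn to scale in kilobases from the start of the first member (bar length, gene length; red, called higher in resting; blue, called higher in proliferative; gray, not called). The chromosome 10 genes run from 3.04 to -3.38 over 203 kb, while the values on chromosome 1 are all negative and those on chromosome 13 all positive.

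Some members overlap genes on the other strand, and the strand setting of the counting is not given in the sources used here. *Gm15851*, an antisense gene, shares 350 exonic bases with *Prelp*. Its counts were 2, 1, 19 and 5 in the resting libraries of mice 1, 2, 6 and 13 and 126, 1906, 2783 and 45 in the proliferative libraries, so it exceeded *Prelp* itself in the proliferative libraries of mice 2 and 6 and was far below it in those of mice 1 and 13. *Gm10754*, a long noncoding RNA gene, shares 1041 exonic bases with *Epyc*, and its counts were 0, 4, 1 and 0 against 51, 55, 101 and 31. Both were called higher in the proliferative zone by the edgeR quasi-likelihood test, with log2 fold changes of -6.74 (standard error 1.12, adjusted p = 0.000853) and -4.91 (standard error 0.66, adjusted p = 3e-04). The fitted value of *Gm10754* depends on the prior count, since 3 of its resting libraries held at most 1 count. With the opposite-strand counts added, *Prelp* had a log2 fold change of -3.92 and *Epyc* of -3.54, and both stayed called. *Cenpp*, whose span holds *Aspn*, *Omd* and *Ogn*, had 0 to 14 counts per library and shares 7 exonic bases with *Aspn*. *Acsf2*, whose span holds *Chad*, shares no exonic base with it and had a log2 fold change of -0.12 (adjusted p = 0.917, edgeR quasi-likelihood test). Elsewhere in the genome, the female libraries held 18683 counts of *Tsix* and 1367 of *Xist*, a pair of genes on opposite strands. The male libraries held 15 and 1. Whether reads were counted on the strand opposite to their transcript was not tested. Reads from a gene and its antisense partner cannot be told apart here, and which strand the counted reads came from is not known for any member.

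**Figure D5:**
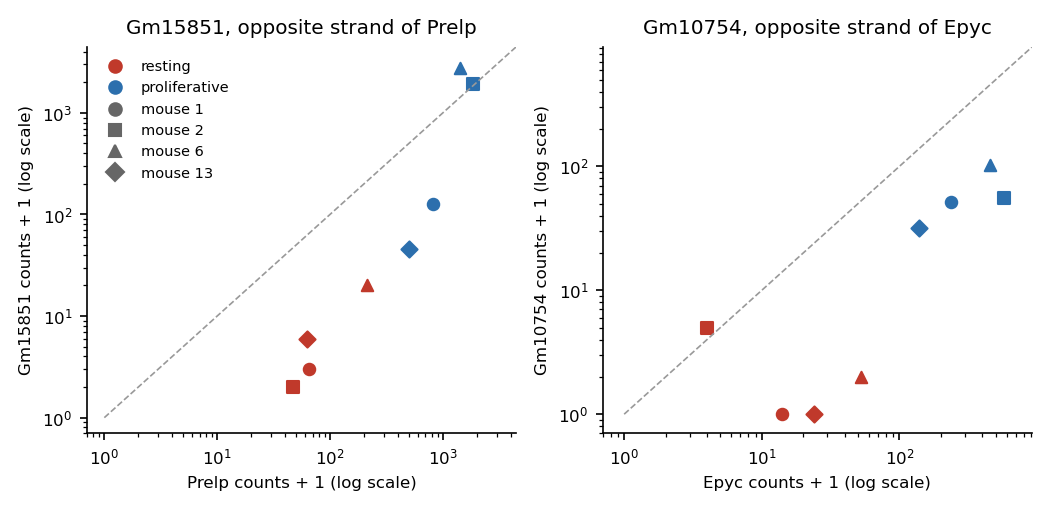
Counts + 1 of *Gm15851* against *Prelp* and of *Gm10754* against *Epyc* in each library, on log axes, with the dashed line marking equal counts (red, resting; blue, proliferative; symbol, mouse). In the proliferative libraries of mice 2 and 6, *Gm15851* reached 1906 and 2783 counts against 1864 and 1432 for *Prelp*.

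Of 8 further family genes, *Tsku* and *Chadl* passed the filter and neither was called. *Tsku*, which encodes tsukushi, had a resting mean of 49.4 ± 5.37 CPM and a proliferative mean of 19.5 ± 6.06 CPM (log2 fold change 1.28, adjusted p = 0.0244, edgeR quasi-likelihood test). *Chadl*, the chondroadherin-like gene of cartilage, had a log2 fold change of -0.66 (adjusted p = 0.379). *Kera*, between *Lum* and *Epyc*, had 7 counts in the resting library of mouse 6 and none elsewhere, and *Optc*, *Nyx* and *Podn* had no count in any library. *Ecm2*, beside *Aspn*, had 1 to 18 counts per library and *Podnl1* 0 to 4.

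Among the enzymes that build the glycosaminoglycan chains, 20 genes belonged to the linker and the dermatan sulfate chain. Of these 9 were tested and 2 were called proliferative-high, against 6.93% of all tested genes. With the mouse as a block *Csgalnact1*, which starts the chondroitin chain, was called as well (log2 fold change -2.08, adjusted p = 0.00585). *Fam20b*, the kinase that phosphorylates the linker xylose, had a resting mean of 8.14 ± 5.85 CPM and a proliferative mean of 92.8 ± 11.8 CPM (log2 fold change -3.30, adjusted p = 0.000485, edgeR quasi-likelihood test). *Chst11*, a chondroitin 4-O-sulfotransferase, had 65.8 ± 22.3 and 371 ± 38.2 CPM (log2 fold change -2.47, adjusted p = 0.000136). The median log2 fold change of the tested genes of this list was -0.68. Of 10 keratan sulfate genes, 2 were tested and neither was called by the quasi-likelihood test.

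Proteases and processing factors that act on these proteoglycans gave 1 call in each direction among 7 tested of 12, where all tested genes were called resting-high in 11.0% and proliferative-high in 6.93%. *Mmp13*, collagenase 3, had a resting mean of 537 ± 174 CPM and a proliferative mean of 21.6 ± 29.8 CPM (log2 fold change 4.66, adjusted p = 0.00109, edgeR quasi-likelihood test). *Pcolce2*, which enhances procollagen processing, had a log2 fold change of -2.14 (adjusted p = 0.00459). *Bmp1*, the protease that removes the biglycan propeptide, had a log2 fold change of 0.94 and an adjusted p of 0.133.

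Binding partners of the family gave calls in both directions. Of 31 genes, 20 were tested, 7 were called resting-high (11.0% of all tested genes were) and 4 proliferative-high (6.93%), with a median log2 fold change of 0.40. With the mouse as a block, *Col11a2* was called as well (log2 fold change -1.70, adjusted p = 0.00912). The resting-high partners were the collagen genes *Col3a1* (4.50), *Col1a1* (4.25), *Col5a2* (3.35), *Col1a2* (3.20), *Col5a1* (2.19) and *Col6a2* (1.92) and fibronectin, *Fn1* (2.98), in log2 fold change. The proliferative-high partners were *Matn1* (-3.36), *Col11a1* (-2.58), *Matn3* (-2.07) and *Col2a1* (-1.36). *Col6a1* had a log2 fold change of 0.96 and an adjusted p of 0.0376 (edgeR quasi-likelihood test). Other collagen partners that were tested and not called were *Col6a3* (0.45), *Col9a1* (-1.32), *Col11a2* (-1.46) and *Col12a1* (-0.12). *Tgfb1*, with at most 5 counts in a library, was not tested. *Col1a1* stood at 15160 ± 8474 CPM in resting and 798 ± 967 CPM in proliferative libraries. Of the 11 called partners, 8 are also in the marker lists above, 4 resting-high ones in the fibroblast list (*Col1a1* and *Col1a2* in the osteoblast list too) and all 4 proliferative-high ones in the chondrocyte list, so these calls are not separate from the marker shift.

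The genes whose log2(CPM + 1) followed a called member most closely over the 8 libraries are given by Pearson's r among 3792 genes. Since the libraries fall into 2 zones, r mainly reflects the zone difference. *Dcn* was followed by *Aplp2*, *Agap1* and *Clu* (0.992, 0.989 and 0.987) and *Omd* by *Hexdc*, *Taf6* and *Sqstm1* (0.956, 0.951 and 0.95). *Prelp* was followed by *Far2*, *Tram1* and *Hapln1* (0.993, 0.992 and 0.991), the last encoding the link protein of aggrecan. *Fmod* was followed by *Chrdl1*, *C1qtnf3* and *Fbln7* (0.994, 0.994 and 0.993) and *Epyc* by *Scfd1*, *Ell2* and *Ccdc125* (0.992, 0.991 and 0.985). For *Lum*, which did not follow the zones, the highest value was 0.828, with *Tmed1*.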

How the data were processed

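RNA of laser-microdissected resting and proliferative chondrocytes was amplified by 2 rounds of in vitro transcription and sequenced. After trimming with BBDuk, the authors aligned reads to GRCm38 (HISAT2 2.1.0), counted them on Ensembl genes (HTSeq 0.11.2) and deposited unnormalized counts of 43629 genes. A second deposited table by the authors holds a scaled signal per library (CPM adjusted by TMM factors) and their own fold changes and p-values. Only its gene names were used for the results. The members' scaled signal was checked to be proportional to the counts.

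Tests used edgeR 4.0.16 in R 4.3.3 on the counts, with TMM factors, the filter by zone (minimum count 10, minimum total 15), a model with zone only and the quasi-likelihood test, adjusted by Benjamini-Hochberg over 3793 genes. CPM used library totals times TMM factors. Single values were compared by exact permutation, with a pseudocount of 1 on the log2 scale. DESeq2 1.42.0, edgeR's likelihood ratio test, other factors, filters and thresholds, a replicate block and left-out libraries were alternatives. Gene positions, transcript lengths and overlaps came from a GENCODE annotation of GRCm38 and promoter windows from RefSeq, read in Python 3.11.15, with figures made in matplotlib 3.10.9.

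By the labels, 2 libraries with 1 number are from 1 mouse, which pairs them. With zone means removed, the 2 libraries of a mouse correlated across genes at 0.165, 0.0136, 0.137 and 0.0577 in mice 1, 2, 6 and 13. No 2 libraries agreed within sampling noise. The named genes were the 10 members, the called genes of each list (at most 5 in each direction), 6 usual partners, genes overlapping a member and the 3 genes nearest to each member in pattern, printed for called members and in part for *Lum*. Further genes, among them the other called binding partners, were named after their values were seen, and marker lists are given mainly by counts. The members and lists were chosen with earlier results of these data known.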

Additional observations from a re-analysis of the deposited data

Results flagged for a closer look

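In 2 of 28 groups of 4 libraries the highest library stood apart by Dixon's criterion, a criterion that chance meets in about 1 in 20 groups. The *Fmod* level of 752 CPM in the resting library of mouse 6 was separated from the other 3 resting libraries (330 to 393 CPM) by 0.851 of the range, and it stayed below every proliferative library. The *Gm10754* level of 12.7 CPM in the resting library of mouse 2, with a ratio of 0.843, rested on 4 counts and stayed below every proliferative library.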

How the results depend on the processing

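*Dcn*, *Prelp*, *Fmod* and *Epyc* kept their calls under every alternative that tested them, but with at least 10 counts required in every library *Dcn*, *Epyc* and *Omd* were not tested, which left 2 members called, 0 of them higher in the resting zone, and 273 genes called in all (140 and 133). *Omd* was lost without both libraries of mouse 6, chosen after the data were seen, which left 1 resting-high member. Genes called numbered 682 (419 resting, 263 proliferative). DESeq2 called 1040 (686 resting), all genes with at least 1 count gave 1297 (829 and 468), and an adjusted p below 0.05 gave 1061 (635 and 426). With library size only, 516 and 194 were called, and the median of all tested genes moved by 0.19 on the log2 scale. Leaving out 1 library gave 442 to 821 genes (249 to 472 resting, 193 to 349 proliferative), with the fewest without the proliferative library of mouse 2, and 4 to 5 members, of which 1 to 2 were resting-high and 3 proliferative-high. The sign of *Lum* reversed with library size only (0.17), at least 10 counts in every library (0.029) and without mouse 6 (0.009). The replicate block (mouse) called 614 genes and changed the call of no member. The lowest library held 0 counts of *Ogn*, 3 of *Aspn* and *Epyc*, 8 of *Omd* and 9 of *Dcn*; a limit set by depth was not tested.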
